A study of Homo sapiens with 30 samples.

Results

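The genes described here carry glucose into the cell and through glycolysis, lactate formation and the pentose phosphate pathway, with 2 hypoxia genes, VEGFA and BNIP3, listed beside them. They were 31 genes chosen by name, and a gene counted as measured when some group had all 3 arrays with a detection p-value under 0.01 for 1 of its probes. The probe annotation named 38 probes for 28 of the 31 genes, and 31 of these probes passed, which left 27 measured genes among the 11526 genes and unnamed probes tested. PDK1, a kinase that shuts off pyruvate dehydrogenase, had no probe that passed, and PGAM1, SLC16A1 and SLC16A3 are not analysed here. Each of the 27 measured genes was detected on all 30 arrays, so none of them entered through its high groups alone.

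The cells were HCT116, an established colon adenocarcinoma line, as wild-type cells (WT) and as isogenic cells that lack the transcription factor p53 (p53KO). Both genotypes were grown in McCoy medium with serum, and each was studied untreated, with actinomycin D at 1, 10 or 100 nM, and with 4 µM nutlin-3, drugs being given for 16 hours before RNA was extracted. Actinomycin D binds DNA and blocks transcription, that of ribosomal RNA at the lowest doses, and nutlin-3 releases p53 from MDM2, which holds it down. There were 3 Illumina bead arrays in each of the 10 groups, and since the labels do not tie these to separate cultures, the p-values speak only of array-to-array spread.

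Glucose enters cells through the facilitative carriers of the SLC2A family, hexokinases trap it as a phosphate, and phosphofructokinase commits it to glycolysis under the control of the bifunctional PFKFB enzymes, which make and remove its main activating sugar bisphosphate. Many of these genes are known targets of HIF-1, the transcription factor that low oxygen stabilises, and of MYC. In other systems p53 is known to hold down the glucose transporter genes SLC2A1 and SLC2A3 and to induce TIGAR, a phosphatase that lowers the same bisphosphate and so favours the pentose phosphate pathway.

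Values below are log2 levels, that is, log2 of background-corrected bead intensities scaled to a common distribution. A log2 difference of 1 is a change of 2-fold, and a gene was called changed at an adjusted p under 0.05 in limma's test over all 11526 features. Levels are compared between groups for 1 gene and not between genes, because probes differ in brightness. Of 15 colon epithelial markers 6, among them EPCAM, were detected on all 30 arrays, whereas CDX1, VIL1, CEACAM5 and LGR5 were detected on none.

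At 100 nM actinomycin D the arrays were dimmer. Their raw 75th percentile was 107.8 to 134.8 intensity units in WT and 100.7 to 117.7 in p53KO cells, against 240.3 to 272.6 and 199.2 to 253.2 without treatment. Detected probes numbered 10101 to 10690 at 100 nM against 12120 to 12547 without treatment. The second p53KO array at 1 nM was dim as well, with a 75th percentile of 133.1 and 11338 detected probes. In RNA from whole cultures, fewer cells of a type and less RNA per cell cannot be told apart. Of 14 markers of fibroblasts, endothelium and blood, 13 had a probe and 7 (COL1A2, COL3A1, LUM, PDGFRB, CDH5, CD3E and HBB) were detected on no array. The summed linear level of the 3 that passed the filter, COL1A1, CD14 and HBA1, was 115 to 186 in untreated WT cells and 663 to 785 at 100 nM, and 181 to 234 and 931 to 1030 in p53KO cells. HBA1 was detected on 30 arrays, COL1A1 on 27 and CD14 on 7, so CD14 entered through the few arrays where it was high. The highest log2 level was 9.62 for HBA1, 6.64 for COL1A1 and 7.19 for CD14, so HBA1 weighs most in the high sums. Of the colon epithelial markers KRT19 fell at 100 nM by 1.41 ± 0.19 in WT and 1.10 ± 0.19 in p53KO cells and CDX2 by 0.81 ± 0.21 and 0.99 ± 0.21, while CDH1 rose by 0.94 ± 0.19 and 0.67 ± 0.19. The summed level of the 8 measured epithelial markers was 27400 to 32400 in untreated WT cells and 20700 to 24600 at 100 nM, and 25900 to 31000 and 19800 to 27800 in p53KO cells. The part of these markers in the 100 nM results was not tested.

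The nutlin arrays numbered 3 and the untreated arrays numbered 1, of both genotypes, stood apart. Many but not all results are also given without these 4 arrays. PROM1, a membrane glycoprotein gene that is no member of the list, lay at 8.13 to 8.95 on the 12 WT arrays without nutlin and at 4.21 to 4.97 on the 12 p53KO arrays. The array with the label WT nutlin replicate 3 had 4.36 and that with the label p53KO nutlin replicate 3 had 9.07, so the third nutlin arrays went against their genotype labels. All values keep the arrays as labelled unless stated.

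The first untreated array of each genotype, which lay on slide 2 while the other 2 lay on slide 4, was high in some genes of the list, several of them hypoxia genes. In both genotypes HK2, ALDOC, ENO2, PFKFB4, SLC2A1, VEGFA and BNIP3 were over 0.5 log2 units above both other untreated arrays, 7 of 27 measured genes or 25.9%, against 5.8% of all features. Other glycolysis genes did not pass that margin. Against the higher of the other arrays, LDHA differed by 0.38 in WT and 0.32 in p53KO cells, PGK1 by 0.13 and 0.03 and GAPDH by -0.20 and 0.04. SLC2A1, the main glucose carrier of proliferating cells, lay at 8.04, 6.50 and 6.52 in untreated WT cells and at 8.78, 7.74 and 7.77 in p53KO cells. VEGFA, the angiogenic growth factor, lay at 6.94, 5.66 and 5.40 and at 6.76, 5.55 and 5.62. The first array was thus the high value of the 3 in each case, and the other 2 lay close together. HK2, the inducible hexokinase, showed the same order with 9.32, 8.30 and 8.34 in WT and 9.69, 8.58 and 8.62 in p53KO cells. ALDOC, the brain form of aldolase, lay at 10.69, 9.23 and 9.40 in WT and at 9.64, 8.97 and 9.06 in p53KO cells. BNIP3, a mitophagy receptor, lay at 10.83, 9.65 and 9.81 and at 10.58, 9.77 and 9.87. LDHB, a lactate dehydrogenase subunit, was the measured gene that lay as far below, at 11.67 against 12.65 and 12.43 in WT cells. Among 24 other measured hypoxia and HIF target genes, 13 (54.2%) were that far above in both genotypes, with the peptide hormone gene ADM at 12.91 against 11.07 and 10.89 in WT and at 12.09 against 10.09 and 9.97 in p53KO cells. CDKN1A, a gene outside these lists, was also high on the first untreated arrays. It lay at 13.91 against 12.27 and 12.22 in WT and at 11.69 against 10.36 and 10.53 in p53KO cells. The other arrays of slide 2 were 4 nutlin arrays, replicates 1 and 2 of each genotype, on which VEGFA, HK2 and BNIP3 lay below the first untreated array of their genotype. VEGFA lay at 5.48 and 5.42 on those of WT and at 5.60 and 5.39 on those of p53KO cells, HK2 at 8.66 and 8.29 and at 8.97 and 8.83, and BNIP3 at 9.73 and 9.67 and at 9.77 and 9.95. SLC2A1, at 8.21 and 7.75 in WT, was above untreated WT replicates 2 and 3 there. What set the first untreated arrays apart was not tested.

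**Figure D1:**
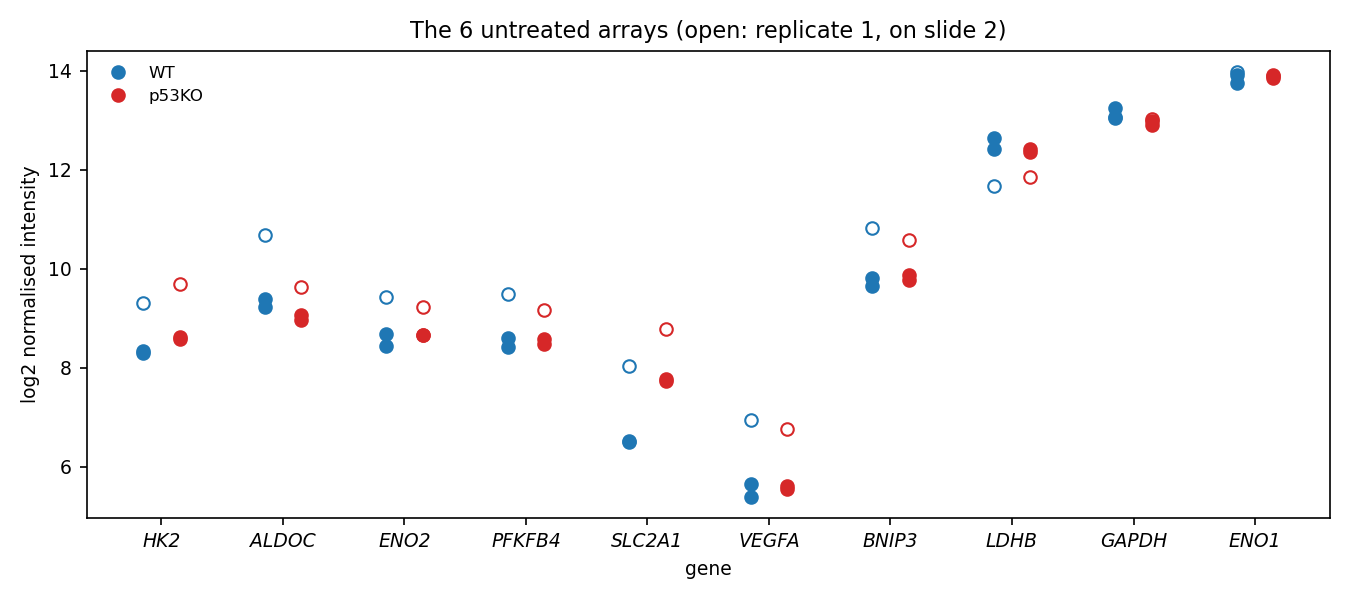
Log2 levels (vertical axis) of 10 genes on the 3 untreated arrays of WT and p53KO cells, with the first array of each genotype as an open symbol. The open symbols lie above both others for the 7 genes HK2, ALDOC, ENO2, PFKFB4, SLC2A1, VEGFA and BNIP3 and below them for LDHB.

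Since these 7 genes were high on the same arrays, the promoters of the 6 that have an entry in RefSeq's annotation of GRCh38.p14 are shown, each 300 bases long with 250 before and 50 after the transcription start. Capitals mark the core letters bound by HIF, ACGTG or GCGTG, on either strand (read as CACGT or CACGC on the strand shown), and the E-box CACGTG holds 2 overlapping matches. SLC2A1 lies at chr1:42958819-42959118 (minus strand), HK2 at chr2:74833877-74834176 and chr2:74834920-74835219 (plus strand, 2 starts) and ALDOC at chr17:28576846-28577145 (minus strand). ENO2 lies at chr12:6914330-6914629 (plus strand), PFKFB4 at chr3:48556754-48557053 (minus strand) and BNIP3 at chr10:131981874-131982173 (minus strand).
SLC2A1: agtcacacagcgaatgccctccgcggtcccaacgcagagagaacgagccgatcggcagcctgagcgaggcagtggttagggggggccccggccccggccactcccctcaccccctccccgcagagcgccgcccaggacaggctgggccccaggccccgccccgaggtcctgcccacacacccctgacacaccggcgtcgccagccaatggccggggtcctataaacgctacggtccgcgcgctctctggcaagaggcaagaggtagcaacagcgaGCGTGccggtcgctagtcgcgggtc
HK2, start 1: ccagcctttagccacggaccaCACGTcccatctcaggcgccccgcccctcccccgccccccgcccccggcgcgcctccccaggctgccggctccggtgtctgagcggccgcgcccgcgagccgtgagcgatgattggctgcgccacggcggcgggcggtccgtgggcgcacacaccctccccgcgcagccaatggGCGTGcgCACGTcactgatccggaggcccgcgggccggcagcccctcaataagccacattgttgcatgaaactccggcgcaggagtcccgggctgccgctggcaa
HK2, start 2: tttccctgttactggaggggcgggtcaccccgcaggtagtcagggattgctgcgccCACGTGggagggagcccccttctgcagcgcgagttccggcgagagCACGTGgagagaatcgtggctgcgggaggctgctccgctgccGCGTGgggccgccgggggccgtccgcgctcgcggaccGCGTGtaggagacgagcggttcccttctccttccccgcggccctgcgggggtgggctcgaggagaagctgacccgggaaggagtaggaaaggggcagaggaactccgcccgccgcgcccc
ALDOC: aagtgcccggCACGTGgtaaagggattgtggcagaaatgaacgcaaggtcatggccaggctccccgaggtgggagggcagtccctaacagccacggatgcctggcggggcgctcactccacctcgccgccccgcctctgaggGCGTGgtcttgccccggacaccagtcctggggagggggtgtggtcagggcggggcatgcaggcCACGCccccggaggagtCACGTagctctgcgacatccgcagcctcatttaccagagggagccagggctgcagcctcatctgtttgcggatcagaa
ENO2: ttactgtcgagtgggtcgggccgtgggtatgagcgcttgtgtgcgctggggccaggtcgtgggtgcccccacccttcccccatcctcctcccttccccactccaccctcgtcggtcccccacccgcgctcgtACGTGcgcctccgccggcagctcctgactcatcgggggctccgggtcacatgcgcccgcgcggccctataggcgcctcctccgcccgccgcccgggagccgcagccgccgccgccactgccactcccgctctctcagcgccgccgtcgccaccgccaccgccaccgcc
PFKFB4: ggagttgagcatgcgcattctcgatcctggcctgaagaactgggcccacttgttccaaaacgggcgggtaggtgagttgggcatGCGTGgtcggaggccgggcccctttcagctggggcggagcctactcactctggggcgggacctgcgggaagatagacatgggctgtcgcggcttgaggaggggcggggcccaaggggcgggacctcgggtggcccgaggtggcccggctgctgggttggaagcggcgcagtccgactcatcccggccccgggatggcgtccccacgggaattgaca
BNIP3: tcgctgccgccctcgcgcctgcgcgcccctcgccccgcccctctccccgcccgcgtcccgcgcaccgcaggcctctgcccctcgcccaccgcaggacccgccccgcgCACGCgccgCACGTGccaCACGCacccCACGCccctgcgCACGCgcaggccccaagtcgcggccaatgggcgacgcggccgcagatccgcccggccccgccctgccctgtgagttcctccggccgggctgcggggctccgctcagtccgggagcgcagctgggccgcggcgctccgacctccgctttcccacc

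The second HK2 start and BNIP3 held 6 matches each, ALDOC 5, the first HK2 start 3 and the promoters of SLC2A1, ENO2 and PFKFB4 1 each. Measured genes that were not high on the first untreated arrays by that margin held a like spread. LDHA held 6 and 1 at its 2 starts, PGK1 4, PGD 3 and GAPDH 2, while TKT and TALDO1 held 0. Whether matches go with the levels on those arrays was not tested. Of all 35116 promoters of this length 48.4% held at least 1 match, 23.1% at least 2 and 4.4% at least 4. For the 24 measured genes with entries, 30 of 45 promoters (66.7%) held a match, and 7 of the 45 held CACGTG, which 7.26% of all promoters held. Some of the 45 overlap, as for PFKM and HK1, and so count the same bases more than once. The difference in shares was not tested. A match describes the letters in this window and does not show binding.

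On the common scale members rose and fell in equal number at 10 nM actinomycin D, and more rose than fell at 100 nM, a balance that other scalings changed at both doses. In WT cells 1 gene rose and 1 fell at 1 nM (2 of 27, where limma called 9.31% of all features, 4.06% higher and 5.25% lower). At 10 nM 3 rose and 3 fell (background 30.9%, 15.6% higher and 15.4% lower), and at 100 nM 10 rose and 5 fell (background 65.7%, 33.2% higher and 32.5% lower). In p53KO cells the counts were 0 at 1 nM (background 0.807%, 0.312% higher and 0.495% lower), 2 higher and 2 lower at 10 nM (background 21.6%, 10.4% and 11.2%) and 13 higher and 6 lower at 100 nM (background 66.1%, 33.8% and 32.3%). The share of called members was near the background or below it at each dose in both genotypes. At 1 nM in p53KO cells 4 members had an unadjusted p under 0.05. The median log2 difference of the 27 genes at 100 nM came to 0.28 for WT and 0.38 for p53KO cells, against 0.04 and 0.03 over all features.

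The split into rises and falls depends on how arrays that differ in brightness are scaled. With the 75th percentile of each array as the scale, the median of all features at 100 nM came to 0.54 for WT and 0.56 for p53KO cells, and that of the 27 genes to 1.26 and 1.28. With no scaling these were -0.80 and -0.69 for all features and -0.08 and 0.03 for the 27 genes. Under the 75th percentile 19 members were higher and 3 lower in WT (73.3% of all features called, 52.6% higher and 20.8% lower) and 19 and 4 in p53KO cells (74.7%, 53.3% and 21.4%). With no scaling 2 were higher and 9 lower in WT (64.3%, 4.56% and 59.8%) and 3 and 9 in p53KO cells (60.0%, 4.68% and 55.3%).

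At 10 nM the median of all features without scaling was 0.13 in WT and 0.38 in p53KO cells, against 0.03 and 0.04. Of the members 3 were then higher and 1 lower in WT (21.6% of all features called, 13.5% and 8.03%), and 8 were higher and 0 lower in p53KO cells (26.6% of all features higher and 3.47% lower). The falls of PFKL and PFKP in p53KO cells lost their calls (-0.67 and -0.19, adjusted p = 0.066 and 0.622), as did those of PFKP and TKT in WT (-0.51 and -0.20, adjusted p = 0.225 and 0.579). Under the 75th percentile 4 were higher and 2 lower in WT (32.5%, 17.9% and 14.6%) and 4 and 1 in p53KO cells (23.5%, 10.6% and 12.9%), with PFKP in p53KO cells at -0.56 (adjusted p = 0.0606). At 100 nM without scaling, calls were lost with the sign kept in WT for PFKM (0.32), PGK1 (0.39), SLC2A3 (0.01) and TALDO1 (0.43). In p53KO cells the same held for GPI (0.32), PFKL (0.40), PFKM (0.42), ALDOC (0.32), PGK1 (0.26), PKM (0.59) and PGD (0.03). Changes at 100 nM below are relative to the common distribution, and a gene whose direction turned under either scale is named as such. For genes outside the list, 100 nM values are given on the common distribution alone.

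**Figure D2:**
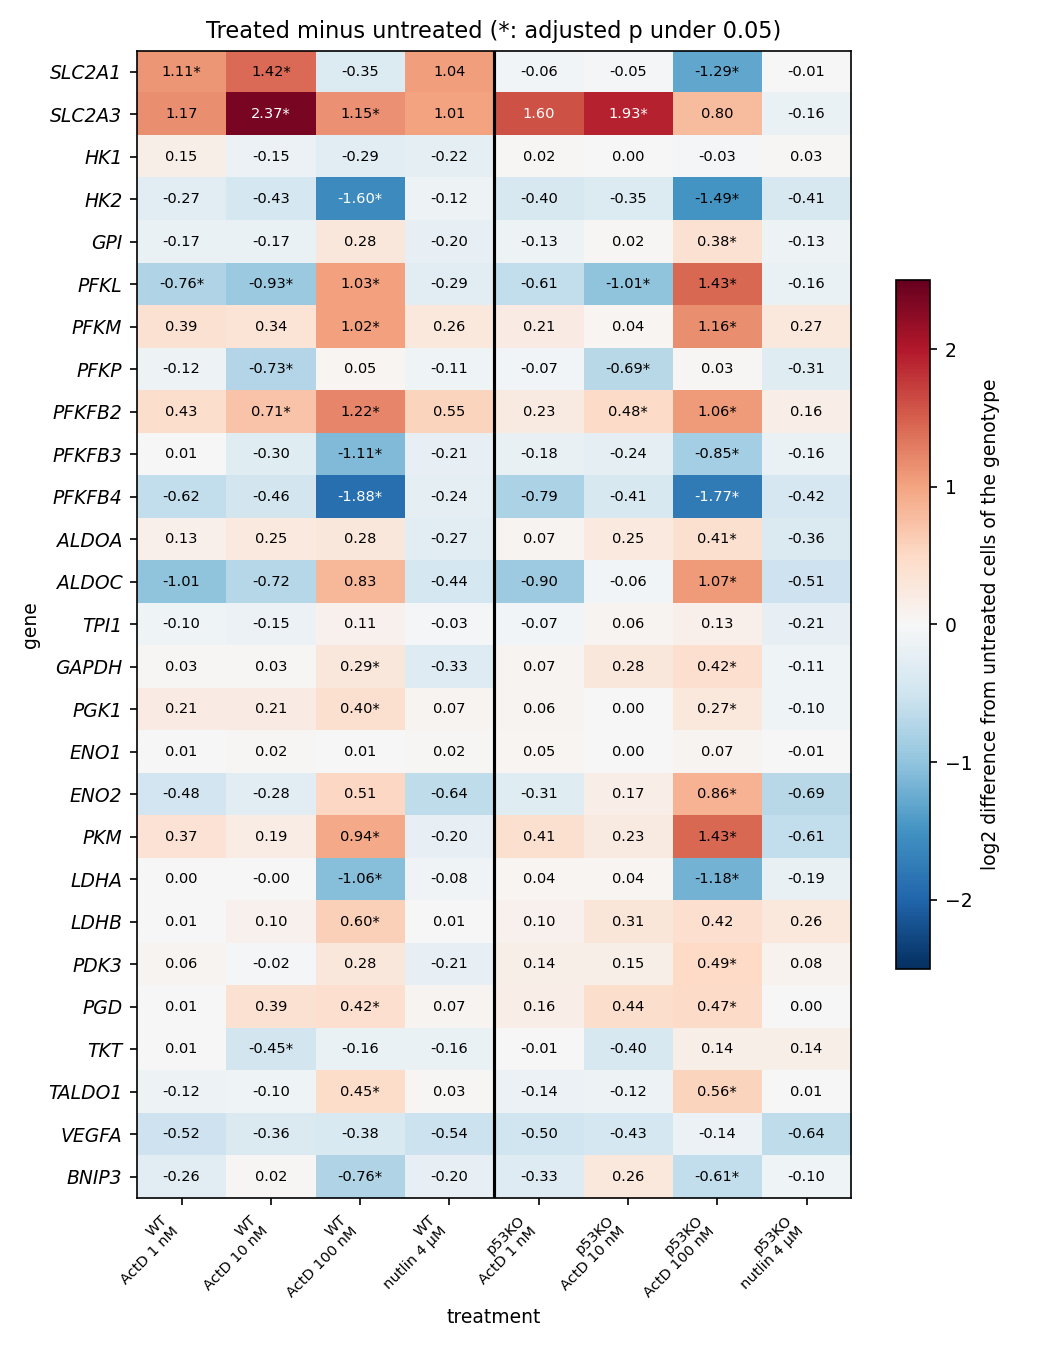
Log2 differences of the 27 measured genes (rows) between treated and untreated cells of the same genotype (8 columns), as colours, with an asterisk where limma's adjusted p was under 0.05. Asterisks cluster in the columns for 100 nM, with 15 in WT and 19 in p53KO cells, and none stand in the nutlin columns or at 1 nM in p53KO cells. At 100 nM, LDHA is higher under 75th percentile scaling, and without scaling PFKL, PKM, PFKFB2 and PGD are lower in WT and ENO2, PFKFB2 and PDK3 lower in p53KO cells.

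Both glucose carriers rose at low doses of actinomycin D, SLC2A1 in WT cells and SLC2A3 in both genotypes at 10 nM, and both stood lower at 100 nM than at 10 nM. In WT cells SLC2A1 lay at 7.73, 8.56 and 8.09 at 1 nM, at 8.20, 8.43 and 8.68 at 10 nM and at 6.30, 6.77 and 6.95 at 100 nM, beside the untreated 8.04, 6.50 and 6.52. Its p53KO values were at 8.06, 8.24 and 7.81 at 1 nM, at 7.89, 8.0 and 8.26 at 10 nM and at 6.77, 6.75 and 6.89 at 100 nM, beside 8.78, 7.74 and 7.77. The WT arrays at 10 nM lay above every untreated WT array, the WT arrays at 1 nM overlapped with the first untreated array, and the p53KO arrays at 1 and 10 nM lay within the untreated range. The rise in WT cells was 1.11 ± 0.31 at 1 nM (log2 difference ± SE, adjusted p = 0.023) and 1.42 ± 0.31 at 10 nM (adjusted p = 0.00104, 2.67-fold). In p53KO cells the differences were -0.06 ± 0.31 (adjusted p = 0.973) and -0.05 ± 0.31 (adjusted p = 0.942). At 100 nM SLC2A1 fell by 1.29 ± 0.31 in p53KO cells (adjusted p = 0.000677, 2.45-fold), with no overlap with untreated arrays, and differed by -0.35 ± 0.31 in WT cells (adjusted p = 0.327). The WT value turned to 0.16 ± 0.21 without the 4 doubted arrays (adjusted p = 0.507) and was -1.63 ± 0.29 without scaling (adjusted p = 1.89e-05), and the p53KO value was -0.95 ± 0.21 without the 4 arrays (adjusted p = 0.000505). From 10 to 100 nM it fell by 1.76 ± 0.31 in WT (adjusted p = 2.09e-05) and by 1.25 ± 0.31 in p53KO cells (adjusted p = 0.000984). Without the 4 doubted arrays the WT rises were 1.62 ± 0.21 (adjusted p = 2.77e-05) and 1.93 ± 0.21 (adjusted p = 9.59e-07). The call at 1 nM was lost without WT replicate 2 (0.89, adjusted p = 0.169) or 3 (1.13, adjusted p = 0.0608) at that dose, or without untreated WT replicate 2 (0.85, adjusted p = 0.129) or 3 (0.86, adjusted p = 0.127). One slide carried the 1 nM arrays and nothing else, so slide and dose cannot be told apart there, and with slide as a random block the value was 0.82 ± 0.41 (adjusted p = 0.459).

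The difference between the genotypes in the SLC2A1 response was tested as an interaction. The response was 1.17 ± 0.43 higher in WT cells at 1 nM (adjusted p = 0.55), 1.46 ± 0.43 at 10 nM (adjusted p = 0.148) and 0.95 ± 0.43 at 100 nM (adjusted p = 0.842), none of which passed over all features. The labels state no pairing of WT with p53KO arrays, and a block by replicate number rests on how these same arrays deviated. With replicate numbers as a block the 10 nM value was 1.46 ± 0.21 (adjusted p = 0.00776). Without the 4 doubted arrays the 10 nM value was 1.63 ± 0.30 (adjusted p = 0.00403) and the 1 nM value 1.33 ± 0.30 (adjusted p = 0.0304). Block and omission together gave 1.33 ± 0.21 at 1 nM (adjusted p = 0.00512), 1.63 ± 0.21 at 10 nM (adjusted p = 0.000812) and 1.12 ± 0.21 at 100 nM (adjusted p = 0.0166). With slide as a fixed block SLC2A1 passed at 1 nM (1.17 ± 0.28, adjusted p = 0.0405) and at 10 nM (1.49 ± 0.29, adjusted p = 0.00663).

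SLC2A3, the high-affinity glucose carrier of neurons and many tumours, had the widest range of the list, 4.79 to 9.44 over the 30 arrays. In WT cells it lay at 4.79, 5.55 and 5.22 untreated, at 6.54, 6.70 and 5.83 at 1 nM, at 7.84, 7.54 and 7.29 at 10 nM and at 6.31, 6.39 and 6.32 at 100 nM. The p53KO arrays had it at 7.67, 7.12 and 6.91 untreated, at 8.82, 9.25 and 8.42 at 1 nM, at 9.44, 9.04 and 9.01 at 10 nM and at 7.86, 8.01 and 8.24 at 100 nM. In each genotype all 9 arrays with actinomycin D lay above all 3 untreated arrays, and the 10 nM group was the highest. SLC2A3 rose at 10 nM by 2.37 ± 0.45 in WT (adjusted p = 0.000336, 5.16-fold) and by 1.93 ± 0.45 in p53KO cells (adjusted p = 0.00334, 3.81-fold), and without the 4 doubted arrays by 2.17 ± 0.27 and 2.15 ± 0.27. Its signal in untreated WT cells was low, so the size of the rise depends on the background correction. Without that correction the rises were 1.67 and 1.74. At 1 nM the differences were 1.17 ± 0.45 (adjusted p = 0.108) and 1.60 ± 0.45 (adjusted p = 0.0905), which passed without the 4 arrays (0.97 ± 0.27, adjusted p = 0.0146, and 1.81 ± 0.27, adjusted p = 0.000705). At 100 nM SLC2A3 rose by 1.15 ± 0.45 in WT cells (adjusted p = 0.0288, 2.22-fold), a call that leaving out any of the 3 arrays at that dose (adjusted p = 0.0529 to 0.0638), untreated WT replicate 1 (0.95, adjusted p = 0.106) or untreated WT replicate 3 (1.17, adjusted p = 0.0533) ended, as did slide as a random block (adjusted p = 0.0699), and without scaling it was 0.01 (adjusted p = 0.989). In p53KO cells the difference at 100 nM was 0.80 ± 0.45 (adjusted p = 0.123), or 1.02 ± 0.27 without the 4 doubted arrays (adjusted p = 0.00189). From 10 to 100 nM it fell by 1.21 ± 0.45 in WT (adjusted p = 0.0223) and by 1.13 ± 0.45 in p53KO cells (adjusted p = 0.0327). These falls were not called without WT replicate 1 at 10 nM (-1.07, adjusted p = 0.0765), nor without p53KO replicate 1 or 2 at 100 nM (-1.04 and -1.11, adjusted p = 0.0855 and 0.0682) or 1 or 2 at 10 nM (-0.99 and -1.19, adjusted p = 0.103 and 0.0515). Its near-identical paralog SLC2A14 may share the probe's signal, which makes the split between the 2 genes uncertain.

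Untreated WT and p53KO cells differed in SLC2A3, the 1 member called in that comparison (limma called 1.28% of all features, 0.824% higher and 0.46% lower in WT), and 6 members had an unadjusted p under 0.05. SLC2A3 was 2.05 ± 0.45 lower in WT (log2, 4.13-fold, adjusted p = 0.025), and no untreated array of 1 genotype overlapped with the other. Without background correction the difference was -1.41, the WT signal being low. The call was lost on leaving out any 1 of the 6 untreated arrays: WT replicate 1, 2 or 3 (-1.85, -2.23 and -2.06, adjusted p = 0.0735, 0.0656 and 0.0832) or p53KO replicate 1, 2 or 3 (-1.83, -2.10 and -2.21, adjusted p = 0.116, 0.0753 and 0.0565). With replicate numbers as a block it was -2.05 ± 0.53 (adjusted p = 0.0818), and without the 4 doubted arrays -1.63 ± 0.29 (adjusted p = 0.00143). Within slide 2 the difference was -2.88 and within slide 4 it was -1.63. SLC2A1 was also lower in WT on both slides, by -0.74 and -1.24, with -1.08 ± 0.31 overall (adjusted p = 0.0885), -1.08 ± 0.15 with the replicate block (adjusted p = 0.00882) and -1.24 ± 0.23 without the 4 arrays (adjusted p = 0.00244).

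**Figure D3:**
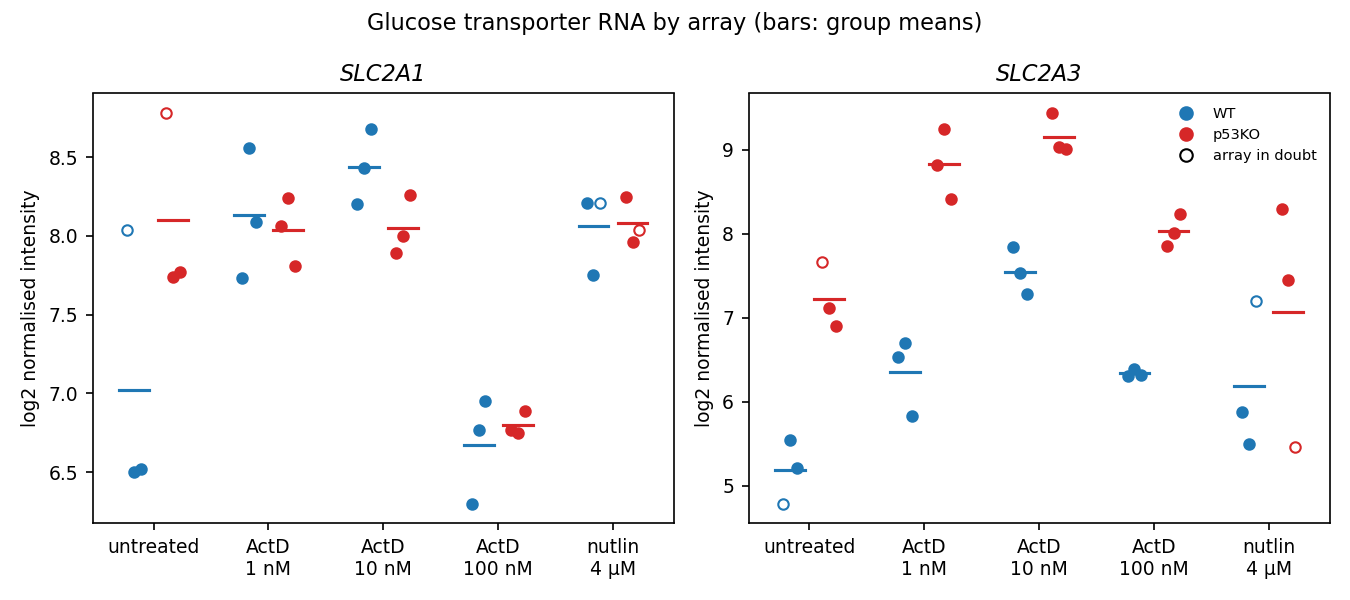
Log2 levels (vertical axis) of SLC2A1 and SLC2A3 on each of the 3 arrays of the 10 groups, with bars at the group means and open symbols for the 4 arrays in doubt. SLC2A3 lies lower in WT than in p53KO cells at each dose of actinomycin D and peaks at 10 nM in both. SLC2A1 is lower at 100 nM than at 10 nM, between 6.30 and 6.95, a range that also holds untreated WT arrays at 6.50 and 6.52.

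Of the other sugar and monocarboxylate carriers, 7 of 16 were measured. SLC2A8, an intracellular hexose carrier, rose at 10 nM by 0.99 ± 0.17 in WT (adjusted p = 0.000127) and by 0.65 ± 0.17 in p53KO cells (adjusted p = 0.00774), the 1 called carrier of the 7 at that dose. At 100 nM 3 rose and 3 fell in each genotype. SLC2A11, a fructose and glucose carrier, rose by 1.11 ± 0.13 and 1.03 ± 0.13, and SLC2A6, a lysosomal hexose carrier, fell by 1.30 ± 0.23 and 1.06 ± 0.23. BSG, the basigin chaperone of lactate carriers, rose by 0.57 ± 0.15 and 0.68 ± 0.15.

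HK2 fell at 100 nM while HK1, the housekeeping hexokinase, was called in none of the 15 comparisons (at 100 nM in WT it was -0.40 ± 0.13 without the 4 doubted arrays, adjusted p = 0.0104). HK2 lay at 7.15, 6.87 and 7.15 in WT and at 7.58, 7.46 and 7.39 in p53KO cells at 100 nM. At 1 nM it lay at 8.56, 8.31 and 8.29 in WT and at 8.71, 8.52 and 8.46 in p53KO cells, and at 10 nM at 8.07, 8.29 and 8.31 and at 8.48, 8.56 and 8.79. The 100 nM arrays were the 6 lowest of the 30, and those at 1 and 10 nM were near untreated replicates 2 and 3. The fall at 100 nM was 1.60 ± 0.27 in WT (adjusted p = 1.4e-05, 3.03-fold) and 1.49 ± 0.27 in p53KO cells (adjusted p = 3.34e-05, 2.81-fold), and without the 4 doubted arrays HK2 fell by 1.26 ± 0.14 and 1.13 ± 0.14. HK1 ranged from 9.81 to 11.01, with the lowest value on the third WT nutlin array. GPI, which turns glucose phosphate into fructose phosphate, ranged from 11.40 to 12.29 and rose at 100 nM in p53KO cells by 0.38 ± 0.13 (adjusted p = 0.0153), a call lost without p53KO replicate 3 at 100 nM (0.31, adjusted p = 0.0744) or untreated p53KO replicate 3 (0.30, adjusted p = 0.0796).

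The 3 phosphofructokinase subunit genes did not move together. PFKL, the liver form, fell at 1 nM in WT cells and at 10 nM in both genotypes and stood highest at 100 nM. PFKM, the muscle form, rose at 100 nM, and PFKP, the platelet form, fell at 10 nM. PFKL lay in WT cells at 8.28, 8.23 and 8.21 untreated, at 7.59, 7.17 and 7.67 at 1 nM, at 7.03, 7.40 and 7.50 at 10 nM and at 8.99, 9.34 and 9.47 at 100 nM. In p53KO cells it lay at 7.83, 7.87 and 7.98 untreated, at 7.52, 6.88 and 7.45 at 1 nM, at 6.68, 6.80 and 7.18 at 10 nM and at 9.06, 9.46 and 9.44 at 100 nM. In both genotypes every array at 1 and 10 nM lay below, and every array at 100 nM above, the untreated arrays. The fall was 0.76 ± 0.21 at 1 nM in WT (adjusted p = 0.0228), 0.93 ± 0.21 at 10 nM in WT (adjusted p = 0.00158) and 1.01 ± 0.21 at 10 nM in p53KO cells (adjusted p = 0.00122, 2.01-fold). At 100 nM PFKL was 1.03 ± 0.21 higher in WT (adjusted p = 0.000141, 2.05-fold), which was -0.03 without scaling, and 1.43 ± 0.21 higher in p53KO cells (adjusted p = 2.19e-06, 2.69-fold). The step from 10 to 100 nM was 1.96 ± 0.21 in WT (adjusted p = 1.52e-08) and 2.43 ± 0.21 in p53KO cells (adjusted p = 4.28e-10). In WT cells, whose arrays at both doses shared slides 1 and 5, it was 1.84 and 2.08 within these slides. The p53KO arrays lay on slide 1 at 100 nM and on slide 5 at 10 nM, so slide and dose cannot be told apart within that genotype.

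The fall of PFKL at 1 nM in WT cells was not called without WT replicate 2 at that dose (-0.61, adjusted p = 0.17), nor without untreated WT replicate 1, 2 or 3 (-0.74, -0.77 and -0.78, adjusted p = 0.0582, 0.0561 and 0.0542). With slide as a random block PFKL was -0.64 ± 0.33 at 1 nM in WT (adjusted p = 0.499), and at 10 nM -0.80 ± 0.29 in WT (adjusted p = 0.0588) and -0.88 ± 0.30 in p53KO cells (adjusted p = 0.0712).

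PFKM lay in WT cells at 9.18, 9.45 and 9.41 untreated and at 10.29, 10.37 and 10.44 at 100 nM, with 9.56, 9.93 and 9.75 at 1 nM and 9.46, 9.91 and 9.69 at 10 nM. Its p53KO values were at 8.71, 9.28 and 9.34 untreated, at 9.18, 9.48 and 9.30 at 1 nM, at 9.14, 9.13 and 9.19 at 10 nM and at 10.17, 10.22 and 10.42 at 100 nM. All 6 arrays at 100 nM lay above the other 24. PFKM rose by 1.02 ± 0.20 in WT (adjusted p = 0.000115, 2.02-fold) and by 1.16 ± 0.20 in p53KO cells (adjusted p = 2.26e-05, 2.23-fold). PFKP lay at 11.79, 11.50 and 11.29 untreated and at 10.70, 10.78 and 10.92 at 10 nM in WT, and at 12.06, 11.53 and 11.49 and at 11.06, 10.89 and 11.05 in p53KO cells. At 1 nM it lay at 11.60, 11.26 and 11.34 in WT and at 11.78, 11.51 and 11.58 in p53KO cells, and at 100 nM at 11.75, 11.72 and 11.27 and at 11.75, 11.85 and 11.59. The 10 nM arrays lay below those of the other actinomycin D doses and of no drug in both genotypes. PFKP fell at 10 nM by 0.73 ± 0.18 in WT (adjusted p = 0.0037) and by 0.69 ± 0.18 in p53KO cells (adjusted p = 0.0075), the latter not called without untreated p53KO replicate 1 (-0.51, adjusted p = 0.0604). From 10 to 100 nM it rose by 0.78 ± 0.18 (adjusted p = 0.000608) and 0.73 ± 0.18 (adjusted p = 0.00119), but by 0.36 and 0.07 without scaling.

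The PFKFB genes split as well, with PFKFB2 higher and PFKFB3 and PFKFB4 lower at 100 nM. PFKFB2, the cardiac isoform, lay in WT cells at 6.84, 6.64 and 6.51 untreated, at 7.08, 7.30 and 6.89 at 1 nM, at 7.33, 7.51 and 7.27 at 10 nM and at 7.99, 8.0 and 7.65 at 100 nM. The p53KO arrays had it at 6.98, 7.23 and 7.11, at 7.15, 7.55 and 7.33, at 7.59, 7.65 and 7.52 and at 8.19, 8.25 and 8.06. The 4 WT groups lay in the order of the dose, those at 1 and 10 nM overlapping. PFKFB2 rose at 10 nM by 0.71 ± 0.14 in WT (adjusted p = 0.000545) and by 0.48 ± 0.14 in p53KO cells (adjusted p = 0.0175). At 100 nM it was 1.22 ± 0.14 higher in WT (adjusted p = 6.82e-08, 2.32-fold) and 1.06 ± 0.14 higher in p53KO cells (adjusted p = 6.34e-07, 2.08-fold), but -0.09 and -0.17 without scaling. The p53KO call at 10 nM was lost without untreated p53KO replicate 1 (0.42, adjusted p = 0.0684) or p53KO replicate 1 or 2 at 10 nM (0.48 and 0.45, adjusted p = 0.0518 and 0.0691), and with slide as a random block (0.49 ± 0.22, adjusted p = 0.172). Its 2 other probes gave 2.10 and 0.89 in WT and 1.96 and 0.39 in p53KO cells at 100 nM, the same direction at other sizes.

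PFKFB3, the inducible isoform of proliferating cells, lay at 7.53, 7.14 and 6.79 in untreated WT cells and at 7.41, 6.91 and 6.90 in untreated p53KO cells. At 100 nM it lay at 6.12, 6.07 and 5.94 in WT and at 6.23, 6.22 and 6.22 in p53KO cells, and at 1 and 10 nM at 6.84 to 7.19 in WT and 6.74 to 7.04 in p53KO cells. The 100 nM arrays lay below all others. PFKFB3 fell by 1.11 ± 0.15 in WT (adjusted p = 8.6e-07, 2.15-fold) and by 0.85 ± 0.15 in p53KO cells (adjusted p = 3.04e-05). PFKFB4, another hypoxia-inducible isoform, lay at 9.49, 8.60 and 8.43 untreated, 8.12, 8.20 and 8.34 at 1 nM, 8.45, 8.33 and 8.35 at 10 nM and 6.83, 6.79 and 7.25 at 100 nM in WT cells. In p53KO cells it lay at 9.18, 8.58 and 8.48 untreated, 7.98, 7.89 and 7.99 at 1 nM, 8.05, 7.95 and 9.0 at 10 nM and 7.16, 6.49 and 7.27 at 100 nM. The 100 nM arrays were again the lowest, and the third p53KO array at 10 nM stood above the other 2 of its group. That array also stood above them for ALDOC (10.34 against 8.54 and 8.62) and BNIP3 (10.82 against 10.14 and 10.05), and by less for HK2, ENO2 and SLC2A1. For VEGFA it did not (5.59 against 5.45 and 5.61). It is not among the 4 doubted arrays, and what set it apart was not tested. PFKFB4 fell at 100 nM by 1.88 ± 0.25 in WT (adjusted p = 5.77e-07, 3.68-fold) and by 1.77 ± 0.25 in p53KO cells (adjusted p = 1.45e-06, 3.41-fold), and without the 4 doubted arrays by 1.56 ± 0.23 and 1.55 ± 0.23.

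**Figure D4:**
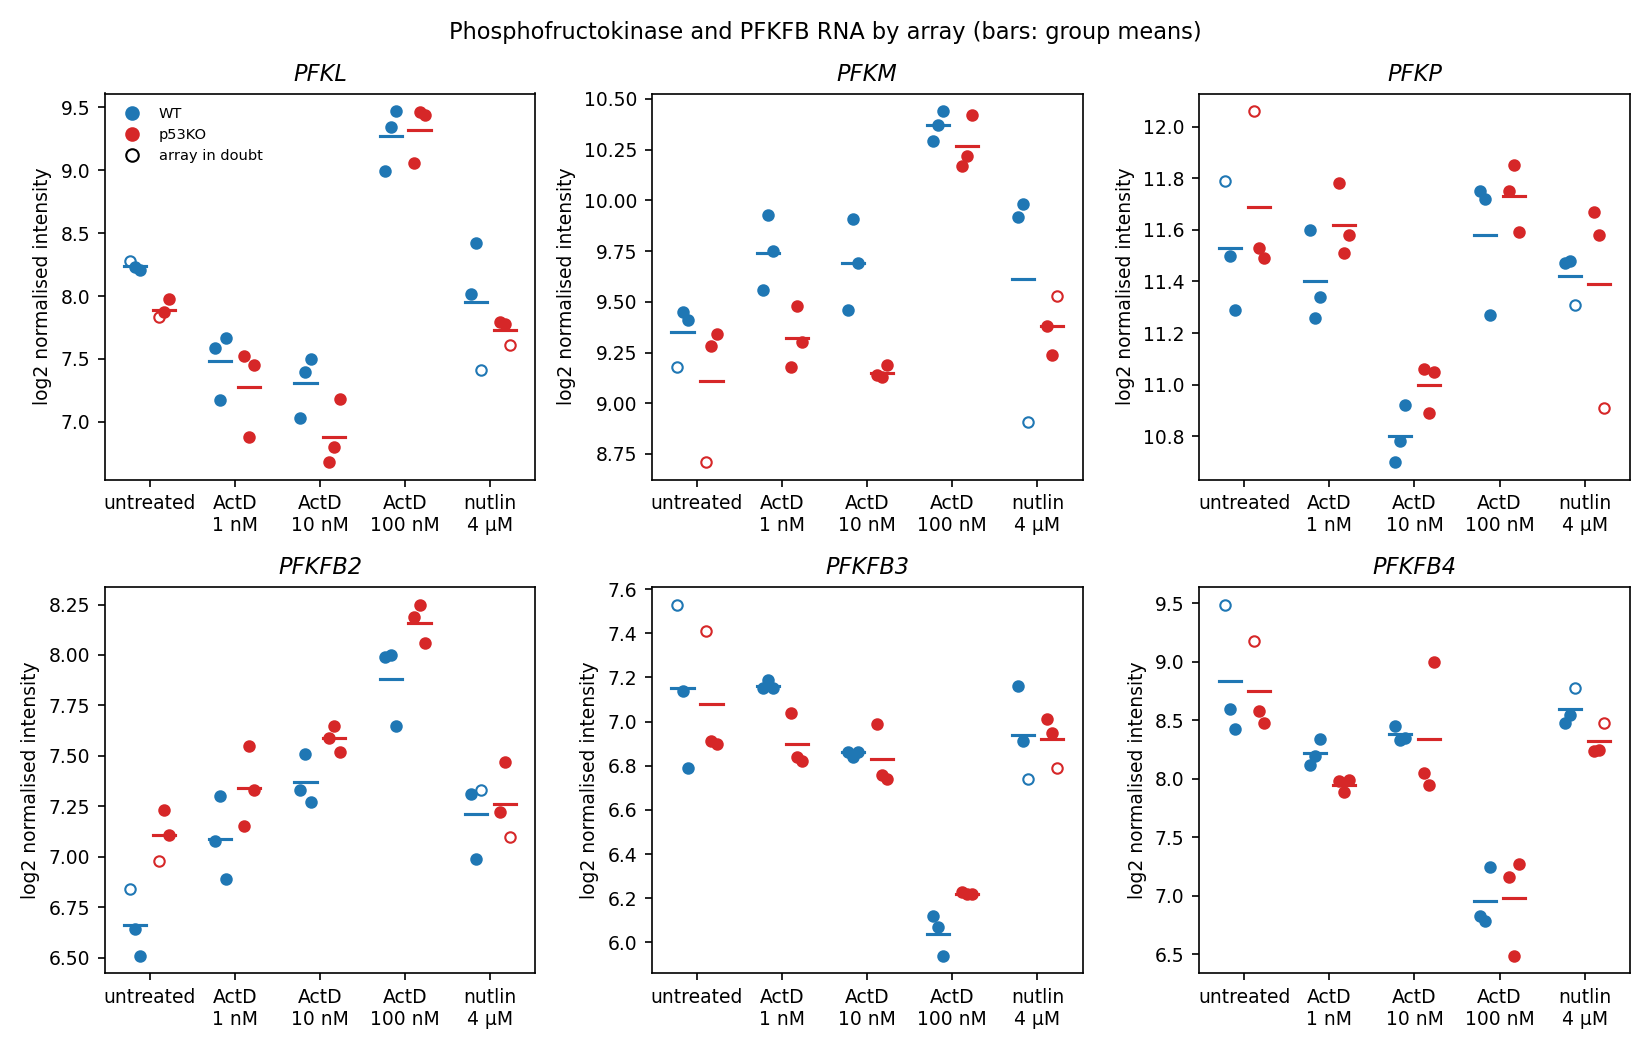
Log2 levels (vertical axis) of the phosphofructokinase subunits PFKL, PFKM and PFKP and of PFKFB2, PFKFB3 and PFKFB4 on each of the 3 arrays of the 10 groups, with bars at the group means and open symbols for the 4 arrays in doubt. PFKL dips at 1 and 10 nM and stands highest at 100 nM (the WT rise at 100 nM and both rises of PFKFB2 are below 0 without scaling), PFKP dips at 10 nM, and PFKFB3 and PFKFB4 drop at 100 nM.

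The 8 measured members from aldolase to pyruvate kinase were not called at 1 or 10 nM in either genotype, and those called at 100 nM were higher on the common scale. Without the 4 doubted arrays 2 were called at 10 nM, ALDOA in WT (0.39 ± 0.15, adjusted p = 0.0466) and GAPDH in p53KO cells (0.31 ± 0.09, adjusted p = 0.0171). ENO1, the main enolase, had a range of 0.24 over the 30 arrays and TPI1, triose phosphate isomerase, lay between 13.09 and 13.77, and neither was called in any of the 15 comparisons, though without the 4 doubted arrays TPI1 was 0.26 ± 0.08 higher at 100 than at 10 nM in WT (adjusted p = 0.0073). GAPDH, the triose phosphate dehydrogenase often used as a reference gene, rose at 100 nM by 0.29 ± 0.10 in WT (adjusted p = 0.0196) and by 0.42 ± 0.10 in p53KO cells (adjusted p = 0.00114), within a range of 12.55 to 13.47. PGK1, phosphoglycerate kinase, rose by 0.40 ± 0.12 (adjusted p = 0.00386) and 0.27 ± 0.12 (adjusted p = 0.0439). ALDOA, the main aldolase, ranged from 12.01 to 13.17 and rose in p53KO cells by 0.41 ± 0.16 (adjusted p = 0.026). The smaller of these calls hung on single arrays: that of GAPDH in WT was lost without untreated WT replicate 1 or 3 (0.25 and 0.26, adjusted p = 0.0697 and 0.0623) or WT replicate 2 at 100 nM (0.27, adjusted p = 0.0563). That of ALDOA was lost without p53KO replicate 2 at 100 nM (0.27, adjusted p = 0.16) or untreated p53KO replicate 2 or 3 (0.36 each, adjusted p = 0.085 and 0.0801). That of PGK1 in p53KO cells was lost without any untreated or 100 nM p53KO array or replicate 1 or 3 at 10 nM (adjusted p = 0.0504 to 0.117).

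The tissue-restricted aldolase and enolase isoforms moved further. ALDOC lay at 100 nM at 10.24, 10.49 and 11.08 in WT and at 10.19, 10.04 and 10.66 in p53KO cells. At 1 nM it lay at 8.45, 8.74 and 9.09 and at 8.10, 8.38 and 8.48, and at 10 nM at 8.81, 8.99 and 9.35 and at 8.54, 8.62 and 10.34. In p53KO cells every 100 nM array lay above the untreated arrays, whereas in WT cells the first untreated array, at 10.69, lay within the 100 nM group. ALDOC rose at 100 nM in p53KO cells by 1.07 ± 0.40 (adjusted p = 0.0201, 2.10-fold), and from 10 to 100 nM by 1.55 ± 0.40 in WT (adjusted p = 0.00141) and 1.13 ± 0.40 in p53KO cells (adjusted p = 0.0151). Against untreated p53KO cells the call was lost without p53KO replicate 3 at 100 nM (0.89, adjusted p = 0.0862) or untreated p53KO replicate 2 or 3 (0.95 and 0.99, adjusted p = 0.0705 and 0.0592), and it was 0.70 ± 0.56 with slide as a random block (adjusted p = 0.302). The p53KO step from 10 to 100 nM was not called without replicate 3 at 100 nM (0.95, adjusted p = 0.0691) or replicate 1 or 2 at 10 nM (0.82 and 0.86, adjusted p = 0.106 and 0.0932), and was 1.72 ± 0.37 without replicate 3 at 10 nM. ENO2, the neuronal enolase, lay between 7.51 and 10.01, and rose at 100 nM in p53KO cells by 0.86 ± 0.24 (adjusted p = 0.00338), which was -0.05 without scaling. In WT cells without the 4 doubted arrays ALDOC was 1.29 ± 0.36 higher at 100 nM (adjusted p = 0.00367; 0.83 with them) and ENO2 0.81 ± 0.17 higher (adjusted p = 0.000354; 0.51 with them). Of 13 other measured glycolytic enzymes 7 rose and 2 fell at 100 nM in WT and 7 rose and 1 fell in p53KO cells, with the muscle enolase ENO3 higher by 2.16 ± 0.22 and 2.65 ± 0.22. ENO3 also rose at 10 nM in p53KO cells, by 0.96 ± 0.22 (adjusted p = 0.00267).

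PKM, pyruvate kinase, lay at 8.61, 8.48 and 8.57 in untreated WT cells, at 8.89, 8.93 and 8.95 at 1 nM, at 8.53, 8.91 and 8.80 at 10 nM and at 9.42, 9.61 and 9.46 at 100 nM. Its p53KO values were at 8.89, 8.25 and 8.57 untreated, at 8.79, 9.15 and 9.0 at 1 nM, at 8.85, 9.04 and 8.52 at 10 nM and at 9.47, 11.10 and 9.42 at 100 nM. The 100 nM arrays were above the rest, and the second p53KO array stood far above its group. PKM was 0.94 ± 0.30 higher at 100 nM in WT (adjusted p = 0.00705), which was -0.04 without scaling, and 1.43 ± 0.30 higher in p53KO cells (adjusted p = 0.000167, 2.69-fold). Without p53KO replicate 2 at 100 nM the latter was 0.88 ± 0.23 (adjusted p = 0.00181, 1.83-fold), and without scaling 0.59 (adjusted p = 0.172). A second PKM probe differed by 1.23 and 1.56. With slide as a random block the WT value was 0.78 (adjusted p = 0.131).

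At the branch from pyruvate, LDHA fell and LDHB rose at 100 nM in WT cells on the common scale. LDHA, the lactate dehydrogenase subunit of glycolytic cells, lay at 13.78, 13.17 and 13.40 in untreated WT cells, at 13.54, 13.39 and 13.42 at 1 nM, at 13.45, 13.39 and 13.49 at 10 nM and at 12.69, 12.49 and 12 at 100 nM. The p53KO arrays had it at 13.89, 13.52 and 13.57 untreated, at 13.62, 13.71 and 13.77 at 1 nM, at 13.66, 13.60 and 13.85 at 10 nM and at 12.75, 12.46 and 12.23 at 100 nM. The 100 nM arrays were the 6 lowest of the 30. LDHA fell by 1.06 ± 0.18 in WT (adjusted p = 1.4e-05, 2.08-fold) and by 1.18 ± 0.18 in p53KO cells (adjusted p = 3.18e-06, 2.27-fold), but was 0.35 and 0.20 higher than in untreated cells under 75th percentile scaling. LDHB rose in WT cells by 0.60 ± 0.19 (adjusted p = 0.0086), by 0.31 ± 0.13 without the 4 doubted arrays (adjusted p = 0.0425) and by 0.31 without untreated WT replicate 1 alone (adjusted p = 0.128). PDK3, a kinase that inhibits pyruvate dehydrogenase, ranged from 6.53 to 7.50 and was 0.49 ± 0.16 higher at 100 nM in p53KO cells (adjusted p = 0.01), which was -0.74 without scaling and 0.31 without p53KO replicate 1 at 100 nM (adjusted p = 0.101). Of 12 other genes of mitochondrial pyruvate entry, 4 rose and 3 fell at 100 nM in WT and 3 rose and 3 fell in p53KO cells. PDP1, the phosphatase that reactivates pyruvate dehydrogenase, fell by 2.29 ± 0.12 and 2.00 ± 0.12 (adjusted p = 5.78e-14 and 7.77e-13), and PDHX, a structural subunit of the complex, by 1.21 ± 0.15 and 1.20 ± 0.15. MPC1, a subunit of the mitochondrial pyruvate carrier, rose by 0.81 ± 0.10 and 0.98 ± 0.10.

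In the pentose phosphate pathway the 3 measured members moved by less than 2-fold. TKT, transketolase, lay in WT cells at 12.46, 12.60 and 12.74 untreated and at 11.95, 12.17 and 12.32 at 10 nM, with 12.49, 12.58 and 12.75 at 1 nM and 12.46, 12.47 and 12.38 at 100 nM. In p53KO cells it lay at 11.99, 12.11 and 12.38 untreated, at 12.14, 12.08 and 12.23 at 1 nM, at 11.73, 11.79 and 11.76 at 10 nM and at 12.21, 12.35 and 12.34 at 100 nM. The 10 nM arrays lay below the untreated arrays in both genotypes. TKT fell at 10 nM in WT cells by 0.45 ± 0.16 (adjusted p = 0.0333), and rose from 10 to 100 nM in p53KO cells by 0.54 ± 0.16 (adjusted p = 0.0048), or by 0.04 without scaling. The first call was lost without WT replicate 1 or 2 at 10 nM (-0.35 and -0.46, adjusted p = 0.158 and 0.0657) or untreated WT replicate 2 or 3 (-0.45 and -0.38, adjusted p = 0.0715 and 0.124), and was -0.38 ± 0.21 with slide as a random block (adjusted p = 0.223). TALDO1, transaldolase, rose at 100 nM by 0.45 ± 0.11 in WT (adjusted p = 0.000744) and by 0.56 ± 0.11 in p53KO cells (adjusted p = 6.78e-05). PGD, the second dehydrogenase of the oxidative branch, was 0.42 ± 0.18 higher at 100 nM in WT (adjusted p = 0.0403), which was -0.10 without scaling, and 0.47 ± 0.18 higher in p53KO cells (adjusted p = 0.0208). Without the 4 doubted arrays the PGD values were 0.22 ± 0.14 (adjusted p = 0.156) and 0.24 ± 0.14 (adjusted p = 0.126). The PGD call in WT was lost without any WT array at 100 nM or untreated WT replicate 1 (adjusted p = 0.0625 to 0.287), and that in p53KO cells without replicate 2 at 100 nM (0.43, adjusted p = 0.0629) or untreated replicate 1 (0.24, adjusted p = 0.219).

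Of 12 other pentose phosphate and ribose enzymes 9 were measured, and in WT cells at 10 nM 1 rose and 4 fell. The 1 that rose was TIGAR, at 8.36, 7.44 and 7.62 untreated, 9.28, 9.73 and 9.65 at 1 nM, 9.95, 9.68 and 9.90 at 10 nM and 7.45, 7.34 and 7.73 at 100 nM in WT cells. In p53KO cells TIGAR lay at 8.05, 7.91 and 7.87 untreated, 8.14, 8.11 and 8.09 at 1 nM, 8.44, 8.28 and 8.22 at 10 nM and 7.42, 7.27 and 7.28 at 100 nM. WT arrays at 1 and 10 nM lay above every other array labelled WT, and in p53KO cells the untreated, 1 nM and 10 nM arrays lay between 7.87 and 8.44. The response of TIGAR at 10 nM was 1.66 ± 0.30 higher in WT cells (interaction, adjusted p = 0.0101). The genes that fell at 10 nM included PGLS, the lactonase of the oxidative branch, by 0.60 ± 0.16 in WT (adjusted p = 0.0068) and 0.81 ± 0.16 in p53KO cells (adjusted p = 0.000811). DERA, the deoxyribose phosphate aldolase, fell by 0.76 ± 0.17 (adjusted p = 0.00181) and 0.81 ± 0.17 (adjusted p = 0.00145). At 100 nM 5 of the 9 rose and 1 fell in WT, and 4 rose and 2 fell in p53KO cells, with RPIA, ribose phosphate isomerase, higher by 1.00 ± 0.12 and 0.81 ± 0.12.

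The hypoxia genes listed beside the enzymes were VEGFA and BNIP3. VEGFA was called in none of the 15 comparisons, and on the 28 arrays other than the first untreated ones it lay between 5.02 and 6.16. BNIP3 lay at 9.65, 9.40 and 8.98 at 100 nM in WT and at 9.81, 9.32 and 9.27 in p53KO cells. It fell at 100 nM by 0.76 ± 0.26 in WT (adjusted p = 0.014) and by 0.61 ± 0.26 in p53KO cells (adjusted p = 0.0438), with overlap in both. Without the 4 doubted arrays the values were -0.39 ± 0.20 (adjusted p = 0.0874) and -0.36 ± 0.20 (adjusted p = 0.117). Under 75th percentile scaling they were -0.34 and -0.26, not called, and without scaling -1.68 and -1.51. The WT call was lost without untreated replicate 1 (-0.39, adjusted p = 0.174) or replicate 3 at 100 nM (-0.57, adjusted p = 0.0856), and the p53KO call without untreated replicate 1 (-0.36, adjusted p = 0.263) or replicate 2 or 3 at 100 nM (-0.54 and -0.51, adjusted p = 0.121 and 0.138). From 10 to 100 nM BNIP3 fell by 0.78 ± 0.26 (adjusted p = 0.012) and 0.87 ± 0.26 (adjusted p = 0.00524), not called without WT replicate 3 at 100 nM (-0.59, adjusted p = 0.0752) and p53KO replicate 3 at 10 nM (-0.63, adjusted p = 0.0533), respectively.

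Members called in the same direction in both genotypes at 100 nM were 8 of the 10 that rose in WT and of the 13 that rose in p53KO cells, and 5 of the 5 and 6 that fell. The 8 were PFKL, PFKM, GAPDH, PGK1, PKM, PFKFB2, PGD and TALDO1, of which PFKL, PKM and PGD in WT and PFKFB2 in both turned below 0 without scaling. The 5 were HK2, LDHA, PFKFB3, PFKFB4 and BNIP3. Under 75th percentile scaling LDHA turned above 0 and BNIP3 lost its call in both genotypes. At 10 nM PFKFB2 and SLC2A3 rose and PFKL and PFKP fell in both genotypes, 2 of the 3 and 2 called in each direction. Over all features limma called 33.2% higher in WT and 33.8% in p53KO cells at 100 nM, and 32.5% and 32.3% lower. At 10 nM it called 15.6% and 10.4% higher and 15.4% and 11.2% lower. The overlap of calls over all features is not given here, so these overlaps are not read as particular to the members. No member was called in the interaction at 1, 10 or 100 nM or with nutlin, where limma called 0.0%, 0.425%, 0.234% and 0.0% of all features, and 1 member had an unadjusted p under 0.05 in each. From 10 to 100 nM 11 members rose and 7 fell in each genotype (background 64.6% in WT, 32.0% higher and 32.6% lower, and 64.8% in p53KO cells, 32.3% and 32.5%). In each genotype 1 of the 11 rises and 5 of the 7 falls kept their call under all alternatives of scaling and background correction.

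**Figure D5:**
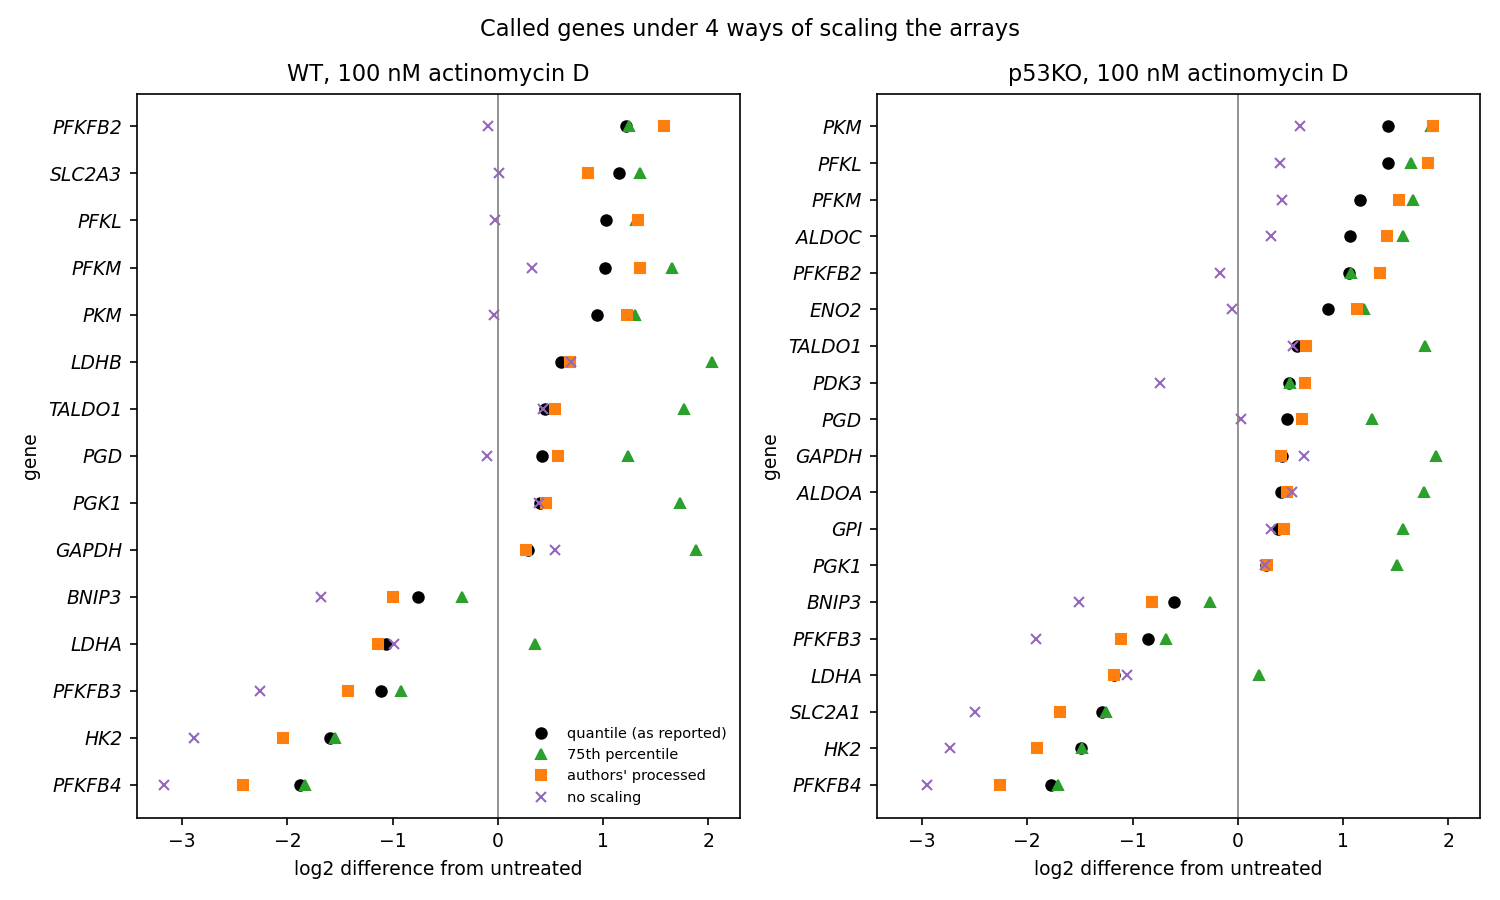
Log2 differences at 100 nM against untreated cells (horizontal axis) of the members called there, in WT and p53KO cells, under 4 treatments of the intensities: quantile scaling, 75th percentile scaling, the authors' processed intensities and no scaling between arrays. HK2, PFKFB3 and PFKFB4 lie below 0 under all 4, LDHA lies above 0 under the 75th percentile (0.35 and 0.20), and PFKFB2 lies below 0 without scaling (-0.09 and -0.17).

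The step from 10 to 100 nM could be read within slides in WT cells, since slide 1 held 2 arrays at 100 nM and 1 at 10 nM and slide 5 the reverse. HK2 differed by -1.14 on slide 1 and -1.33 on slide 5, SLC2A1 by -1.80 and -1.67, SLC2A3 by -1.22 and -1.17, PFKFB4 by -1.30 and -1.60 and LDHA by -1.05 and -0.99. PFKFB2 differed by 0.31 and 0.69 and ALDOC by 1.67 and 1.41. Each of these 7 genes had the same sign on both slides, with no test within a slide. In p53KO cells all 100 nM arrays lay on slide 1 and all 10 nM arrays on slide 5, so there the step could not be read within a slide. Without scaling PFKFB2 was -0.87, and under 75th percentile scaling LDHA was 0.17. Untreated arrays shared no slide with arrays given actinomycin D, so for those comparisons the slide could enter only as a random block.

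With nutlin as labelled no member was called in WT cells (background 0.234%, 0.121% higher and 0.113% lower, with 5 members at an unadjusted p under 0.05) or in p53KO cells (background 0.0521%, 0.0434% and 0.00868%, with 4 members). SLC2A1 lay at 8.21, 7.75 and 8.21 in WT with nutlin, 1.04 ± 0.31 above untreated cells (adjusted p = 0.164), and at 8.25, 7.96 and 8.04 in p53KO cells. SLC2A3 lay at 5.88, 5.50 and 7.20 in WT and at 8.30, 7.45 and 5.47 in p53KO cells, and on the third array of each it lay on the side of the other genotype. PFKL and PFKM lay at 8.02, 8.42 and 7.41 and at 9.92, 9.98 and 8.91 in WT cells. Without the 4 doubted arrays SLC2A1 rose with nutlin in WT cells by 1.47 ± 0.23 (adjusted p = 0.0022), while a fixed slide effect, which rests mainly on slide 2 with 1 untreated array of each genotype but also uses the genotype difference on slide 4, gave 0.11 ± 0.26 (adjusted p = 0.818). Set against the first untreated WT array alone, within slide 2, SLC2A1 differed by -0.06. With the fixed slide effect 1 member rose and 7 fell in WT cells, where 19.7% of all features were called (10.6% higher and 9.14% lower). In p53KO cells 2 rose and 9 fell, where 19.2% were called (9.82% and 9.39%). HK2 fell by 0.88 ± 0.15 in WT (adjusted p = 0.000392) and 0.77 ± 0.15 in p53KO cells (adjusted p = 0.00137), and VEGFA by 1.42 ± 0.24 (adjusted p = 0.000223) and 1.34 ± 0.24 (adjusted p = 0.000409). HK2 and VEGFA are among the genes that were high on that untreated array.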

How the data were processed

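Total RNA was amplified, labelled and hybridised to Illumina bead arrays, per the labels' protocols, and BeadStudio is named in the submitters' processing notes without a version. The authors deposited unnormalised bead intensities with a detection p-value for each probe and array, per the file headers, and a table of processed intensities with a median of 10.195 on every array, made by a method that the labels and headers do not name. The 26 arrays of other samples in the deposited intensity table were not used. For the comparisons, deposited intensities were background-corrected, quantile-normalised and log2-transformed with neqc of limma 3.58.1 in R 4.3.3, with negative controls inferred from the deposited detection p-values and an offset of 16, so that the log2 values are not the authors' own. The authors' deposited processed values were used on the log2 scale as an alternative.

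Of 22177 probes, 12896 passed in some group, with a detection p-value under 0.01 on its 3 arrays. The platform annotation gave 21101 probes 1 symbol, 1076 none and 0 several, and 20986 symbols were updated through the gene ID. The probe with the highest mean stood for a gene, which left 11526 features, 10919 of them with a symbol. A model of 10 group means was fitted over all 30 arrays with 20 residual degrees of freedom, and p-values of 15 contrasts were adjusted over all features by Benjamini-Hochberg. The number of arrays limits the precision. The fit was tested on simulated data.

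Genes outside the list are given where called, at most 4 a gene set and comparison, those with the lowest adjusted p. Values on every array are given for members called with a difference of 2-fold or more, in opposite directions, or between genotypes. The members, the lists and the tests were chosen with earlier results of these data known.

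Arrays with the same replicate number in WT and p53KO cells deviated together from their group means without treatment and with actinomycin D, but not with nutlin. The lowest correlation was 0.60 for untreated cells, 0.41, 0.35 and 0.23 at 1, 10 and 100 nM, and -0.44 for nutlin. Untreated replicates 2 and 3 also correlated with an array of another number, at 0.49. The replicate block was an alternative for the comparisons between genotypes. The arrays lay on 7 slides, with a correlation of 0.501 within a slide. Alternatives covered the scaling, background correction, detection filter, probe choice, slide, replicate block and left-out arrays. No 2 arrays held identical values (0 pairs).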

Additional observations from a re-analysis of the deposited data

How the results depend on the processing

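The number of arrays and the dim signal at 100 nM limit what can be called. Of 83 called member values 29 lost their call on leaving out some single array. With slide as a random block 66 kept their call and 17 lost it, with the authors' processed intensities 80 and 3, and without the 4 doubted arrays 79 and 4, with none reversed. With 75th percentile scaling 73 kept their call, 6 lost it and 4 reversed, and with no scaling 39 kept it, 26 lost it and 18 reversed. Where a value below moved or turned, the cause was not tested.

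Members called at 1 nM in WT cells numbered 0 without scaling, 0 with slide as a random block, and 4 without the 4 doubted arrays or the third nutlin arrays (0 to 4 on leaving out single arrays), against 2. In p53KO cells at 1 nM 1 was called without background correction, without the 4 arrays or without the third nutlin arrays (0 to 1). At 10 nM in p53KO cells the count was 8 without scaling (8 higher and 0 lower, against 2 and 2) and 2 with the random block (2 to 6), against 4, and at 100 nM 12 without scaling (15 to 20), against 19. Without the 4 arrays the count at 100 nM was 19 in WT cells (14 higher and 5 lower), against 15, and 18 in p53KO cells (13 and 5). The ranges on leaving out single arrays were 5 to 7 at 10 nM and 12 to 16 at 100 nM in WT cells, and 15 to 19 in WT and 13 to 19 in p53KO cells from 10 to 100 nM. With nutlin in WT cells the count was 1 with the authors' processed intensities, 3 with the random block, 8 with slide as a fixed block, and 1 without the 4 or the first untreated arrays (0 to 1). In p53KO cells with nutlin it was 5 and 11 with slide as a random and a fixed block (0 to 0).

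Between untreated genotypes the count was 0 with the authors' processed intensities or no detection filter, 2 with a gene's mean probe or the random block, 5 with the fixed block, 3 without the 4 arrays and 4 without the third nutlin arrays (0 to 1). With the replicate block, which pairs WT and p53KO arrays of one number, it was 1, with SLC2A1 in place of SLC2A3, and 5 with the block and without the 4 arrays. In the interaction at 10 nM the replicate block called 1 member, as did the random block, the fixed block, leaving out the 4 arrays with or without the block, and leaving out the first untreated arrays (0 to 1). At 1 nM the fixed block and leaving out the 4 arrays called 1 each, and block and omission together 2. At 100 nM block and omission called 1. The replicate block changed no other call.

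Without scaling between arrays, values turned at 100 nM in WT cells for PFKL (-0.03), PKM (-0.04), PFKFB2 (-0.09) and PGD (-0.10), and in p53KO cells for ENO2 (-0.05), PFKFB2 (-0.17) and PDK3 (-0.74). From 10 to 100 nM they turned in WT cells for PFKM (-0.14), ENO2 (-0.29), PKM (-0.30) and PFKFB2 (-0.87), and in p53KO cells for GPI (-0.18), PFKM (-0.04), ALDOC (-0.00), PGK1 (-0.22), ENO2 (-0.61), PKM (-0.02) and PFKFB2 (-1.02). Under 75th percentile scaling LDHA turned, to 0.35 and 0.20 at 100 nM in WT and p53KO cells and to 0.17 and 0.04 from 10 to 100 nM.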

Other observations

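Genes outside the list of 31 are given here on the common scale, with limma. Of 9 measured HIF pathway factors 1 was higher and 6 lower at 100 nM in WT and 2 higher and 6 lower in p53KO cells. Over all features limma called 65.7% in WT (33.2% higher and 32.5% lower) and 66.1% in p53KO cells (33.8% and 32.3%). The counts of the other lists below stand against the same shares. The coactivator CREBBP differed by -2.98 ± 0.20 in WT and -3.19 ± 0.20 in p53KO cells, HIF1AN, the hydroxylase that blocks HIF coactivator binding, by -1.75 ± 0.12 and -1.74 ± 0.12, and ARNT, the constant subunit of HIF, by -1.28 ± 0.14 and -0.95 ± 0.14. CITED2, which competes with HIF for the same coactivator, rose by 2.46 ± 0.22 and 2.39 ± 0.22. At 10 nM CITED2 rose by 1.64 ± 0.22 in WT (adjusted p = 5.36e-06) and 0.86 ± 0.22 in p53KO cells (adjusted p = 0.00592), and HIF1AN by 0.74 ± 0.12 and 0.65 ± 0.12. Of 24 other hypoxia and HIF target genes 6 rose and 3 fell at 100 nM in WT and 4 rose and 4 fell in p53KO cells. KDM3A, a histone demethylase, fell by 1.97 ± 0.25 in WT and 1.35 ± 0.25 in p53KO cells, and FAM162A, a mitochondrial protein gene, rose by 1.15 ± 0.23 and 0.95 ± 0.23.

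Glycogen enzymes rose at 100 nM, 8 of 10 measured in WT and 9 of 10 in p53KO cells with none lower, at medians of 0.62 and 0.86 against 0.04 and 0.03 over all features. PYGM, the muscle glycogen phosphorylase, rose by 1.26 ± 0.18 and 1.13 ± 0.18, PYGB, the brain form, by 0.83 ± 0.17 and 1.09 ± 0.17, and PHKB, a phosphorylase kinase subunit, by 1.02 ± 0.18 and 1.21 ± 0.18. Of 8 measured glucose-sensing and MYC-linked regulators 2 rose and 3 fell in each genotype. MYC fell by 1.20 ± 0.21 in WT and 0.65 ± 0.21 in p53KO cells, MTOR, the growth kinase, by 1.07 ± 0.19 and 0.78 ± 0.19, and AKT1, a kinase of insulin signalling, rose by 0.77 ± 0.18 and 0.88 ± 0.18.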
